A study of Mus musculus with 12 samples.

Results

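The zinc-dependent histone deacetylases are the enzymes that remove acetyl groups from lysines of histones and other proteins, and 10 of their genes were followed here in the prefrontal cortex of mice after repeated cocaine. The members were taken by name: Hdac1, Hdac2, Hdac3, Hdac4, Hdac5, Hdac6, Hdac7, Hdac8, Hdac9 and Hdac11, each of which had 1 named row in the table of each time point. The tables of 2 h, 24 h and 7 d listed 41319, 42527 and 41667 loci, and all 10 members were among the 13359, 13565 and 13429 named ones with a mean level of at least 1 FPKM (mapped fragments scaled to transcript length and library size). The rule that picks them uses gene names and no level or ratio.

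The animals were male C57BL/6 mice, 10 weeks old, given 14 days of cocaine (20 mg/kg/day) or saline, and the cortex was taken at 2 h, 24 h or 7 d from the final dose. The 6 groups (cocaine or saline at each of 3 time points) each had 2 libraries, and each library held the pooled tissue of 5 mice, 60 mice in all. The deposited value of a gene is 1 FPKM per group, set by the authors from both libraries, so that no spread between libraries, standard error or p-value can be given here. A gene was counted as past the threshold where the 2 groups of a time point differed by 1.2-fold or more, which is 0.26 on the log2(FPKM + 0.1) scale used for every ratio below; this scale understates the ratio of low genes.

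Deacetylases close chromatin by removing the acetyl marks that acetyltransferases write and that reader proteins recognise. Class I enzymes (Hdac1, Hdac2, Hdac3 and Hdac8) are mostly nuclear and, apart from Hdac8, act within corepressor complexes. Class IIa enzymes (Hdac4, Hdac5, Hdac7 and Hdac9) have weak activity of their own, bind MEF2 transcription factors, and leave the nucleus when kinases phosphorylate them and 14-3-3 proteins hold them in the cytoplasm. Hdac6, of class IIb, is a cytoplasmic tubulin deacetylase, and Hdac11 is the only enzyme of class IV. Class IIa enzymes, Hdac5 above all, are known from work on cocaine reward in the striatum.

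The promoters are shown first, for the class IIa members with the highest ratios (Hdac4 and Hdac5) and for the 2 most abundant of the other members (Hdac11 and Hdac2). The sequences are those of RefSeq on GRCm38.p6, where 8 of the 10 members, all but Hdac1 and Hdac3, had an entry and together had 12 promoters. Each runs 5′ to 3′ along the gene's own strand, from 250 bases before the transcription start to 50 after it. Capitals mark TGACG on either strand, the half-site of the cyclic AMP response element that CREB binds. Hdac4 lies at chr1:92180292-92180591 on the minus strand, Hdac5 at chr11:102230123-102230422 on the minus strand, Hdac11 at chr6:91156565-91156864 on the plus strand, and Hdac2 at chr10:36974294-36974593 on the plus strand.
Hdac4: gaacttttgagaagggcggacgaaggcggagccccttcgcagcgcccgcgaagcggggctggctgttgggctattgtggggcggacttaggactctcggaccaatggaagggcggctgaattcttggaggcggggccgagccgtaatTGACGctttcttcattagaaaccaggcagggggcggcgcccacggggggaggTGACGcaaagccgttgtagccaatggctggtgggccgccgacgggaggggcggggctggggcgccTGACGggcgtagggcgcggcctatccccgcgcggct
Hdac5: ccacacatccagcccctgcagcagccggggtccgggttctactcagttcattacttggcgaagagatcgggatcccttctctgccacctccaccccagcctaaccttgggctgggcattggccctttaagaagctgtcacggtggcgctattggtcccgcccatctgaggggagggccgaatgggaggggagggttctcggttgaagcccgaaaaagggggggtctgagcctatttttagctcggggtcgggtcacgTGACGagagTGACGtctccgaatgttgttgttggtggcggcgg
Hdac11: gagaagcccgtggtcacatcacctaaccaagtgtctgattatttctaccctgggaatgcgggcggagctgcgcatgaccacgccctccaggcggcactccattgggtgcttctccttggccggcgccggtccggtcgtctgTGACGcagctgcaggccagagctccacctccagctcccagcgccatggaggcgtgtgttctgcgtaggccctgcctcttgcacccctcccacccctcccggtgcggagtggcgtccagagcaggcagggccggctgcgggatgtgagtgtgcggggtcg
Hdac2: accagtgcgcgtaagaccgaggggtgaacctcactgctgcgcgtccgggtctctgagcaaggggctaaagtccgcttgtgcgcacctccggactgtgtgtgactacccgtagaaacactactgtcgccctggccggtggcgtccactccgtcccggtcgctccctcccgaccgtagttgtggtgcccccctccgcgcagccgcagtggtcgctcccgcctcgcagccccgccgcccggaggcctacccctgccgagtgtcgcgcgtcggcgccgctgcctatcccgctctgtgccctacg

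The half-site was found 3 times in the Hdac4 promoter, with its first base 103 and 51 bases before the start and at base 15 after it. It was found 2 times in the Hdac5 promoter, both times after the start, at bases 8 and 17, and 1 time in the Hdac11 promoter, 109 bases before the start. The Hdac2 promoter and the other member promoters on record held none. Of 12 member promoters, those of Hdac4, Hdac5 and Hdac11 held at least 1, as did 20.8% of all 32851 promoters of the same length. The full element TGACGTCA, which holds the half-site, stood in no member promoter and in 1.79% of all promoters. The GC box GGGCGG, bound by Sp1, had 5 matches in Hdac4, 5 in Hdac6 and 1 each in Hdac2, Hdac5, Hdac11 and 1 of the Hdac7 promoters, against 35.7% of all promoters with a match. The E-box CACGTG was found in Hdac5 alone among the 8 members with an entry, against 7.15% of all promoters. It lay at base 4 after the start, where it overlaps the first half-site. The AP-1 site TGANTCA, bound by Fos and Jun proteins, was found in 1 promoter of Hdac9 and 1 of Hdac7 (7.81% of all promoters), and the EGR site GCGTGGGCG in none (0.612%). All were searched on both strands, and a match is a run of letters, not a measured binding site.

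The base composition differed among the members as well. The 4 promoters printed above were rich in G and C, with 68.0% in Hdac4, 60.7% in Hdac5, 66.7% in Hdac11 and 69.7% in Hdac2, against a median of 52.7% over all promoters. They held 32, 18, 22 and 36 CG pairs, against a median of 7. The 2 Hdac9 promoters had 44.0% and 45.3% with 0 and 3 CG pairs, and the Hdac8 promoter 49.7% with 6. Hdac6 had 62.0% with 20, and the 4 Hdac7 promoters ran from 54.7% to 73.7%.

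FPKM is per length, so that levels are compared between genes here as a description, within the limits of the gene models behind them. All 10 members were detected in every group, and the median level over the 6 groups ran from 3.02 FPKM for Hdac7 to 63.7 FPKM for Hdac11, a 21.1-fold span. The order from the top was Hdac11, Hdac2, Hdac5, Hdac3, Hdac9, Hdac6, Hdac1, Hdac4, Hdac8 and Hdac7. Neighbours in this order with overlapping ranges over the 6 groups, which these values do not order, were Hdac2 and Hdac5, Hdac6 and Hdac1, and Hdac4 and Hdac8. The other neighbours had ranges that did not overlap. The tables of the 3 time points were normalised separately, so that a range over groups also holds that difference. The tissue was prefrontal cortex of mixed cell types, in which fewer cells of a type and less RNA per cell cannot be told apart.

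**Figure D1:**
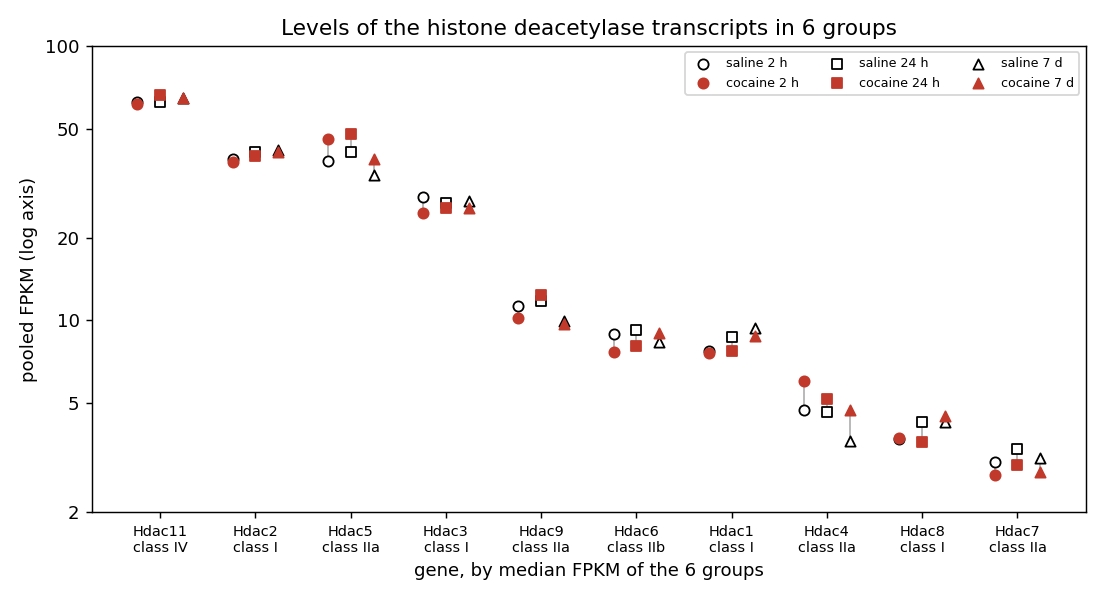
Level of each histone deacetylase gene in FPKM (log axis) in the 6 groups, genes in order of their median; each point is the authors' pooled value of 1 group, and no error bar can be drawn. The genes run from Hdac7 near 3 FPKM to Hdac11 above 60 FPKM, and Hdac4 has the widest range of the 10, with its highest group 1.65 times its lowest.

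Hdac4 and Hdac5 were the members whose level was higher in cocaine than in saline at all 3 time points. Hdac4, a class IIa repressor known for its part in memory, was at 4.73 FPKM in saline and 6.01 FPKM in cocaine at 2 h, 4.66 and 5.16 FPKM at 24 h, and 3.64 and 4.73 FPKM at 7 d. The cocaine group was the higher at each time, but the cocaine level at 7 d equalled the saline level at 2 h. The ratios were 1.27-fold, 1.1-fold and 1.29-fold, or 0.34, 0.14 and 0.37 on the log2 scale. The saline groups alone spanned 0.37 on the same scale, lowest at 7 d. Of all loci kept, 11.3%, 29.9% and 9.43% lay as far from 0 in either direction as Hdac4 at 2 h, 24 h and 7 d.

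Hdac5, the class IIa member that was most abundant, was at 38.1 FPKM in saline and 45.8 FPKM in cocaine at 2 h, 41.0 and 47.8 FPKM at 24 h, and 33.8 and 38.9 FPKM at 7 d. Here too each cocaine group stood above the saline group of its time, while the cocaine level at 7 d lay below the saline level at 24 h. The ratios were 1.2-fold, 1.17-fold and 1.15-fold (log2 ratios of 0.26, 0.22 and 0.20), each within the 0.28 that the saline groups spanned. Loci at least as far from 0 made up 17.5%, 15.8% and 31.1% of all loci, and 5.27%, 4.98% and 24.6% of the loci within 2-fold of the level of Hdac5. At 2 h, Hdac5 was the member just inside the threshold, 20.1% above saline, and at 24 h it was 16.6% above and just outside.

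Hdac7 and Hdac9, the other class IIa members, did not go the way of Hdac4 and Hdac5. Hdac7, better known from blood vessels and thymocytes, was the lowest of the 10 and stood at 3.05 FPKM in saline and 2.74 FPKM in cocaine at 2 h, 3.39 and 2.98 FPKM at 24 h, and 3.15 and 2.80 FPKM at 7 d. Its log2 ratios were -0.15, -0.18 and -0.17, below 0 at all 3 times, as were those of 14.4% of all loci. Its locus also covers Slc48a1, a heme transporter gene, and the library kit did not keep strand, so that reads of the overlapping stretch cannot be assigned to one of them. Hdac9 was at 11.3 FPKM in saline and 10.2 FPKM in cocaine at 2 h, 11.8 and 12.4 FPKM at 24 h, and 9.98 and 9.72 FPKM at 7 d, with no common direction. Its locus begins at 34047478 of chromosome 12 at 2 h and 24 h but at 34371496 at 7 d, so that the gene models behind its values differ between the tables.

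Of the class I enzymes, Hdac1, Hdac2 and Hdac3 were below saline at all 3 times, and Hdac8 at 24 h alone; none was past the threshold at any time. Hdac2, a class I enzyme that restrains synaptic plasticity, was at 38.8 FPKM in saline and 37.8 FPKM in cocaine at 2 h, 41.0 and 39.8 FPKM at 24 h, and 41.7 and 41.0 FPKM at 7 d. Its log2 ratios of -0.04, -0.04 and -0.02 were smaller than the 0.10 its saline groups spanned. Hdac3, the catalytic subunit of the NCoR and SMRT complexes, was at 28.1 and 24.7 FPKM, 26.8 and 25.7 FPKM, and 27.3 and 25.6 FPKM in saline and cocaine at the 3 times. The log2 ratios of Hdac3 were -0.19, -0.06 and -0.09, below 0 at all 3 times, as were those of 14.4% of all loci.

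Hdac1, the close relative of Hdac2, was at 7.71 and 7.64 FPKM at 2 h, 8.72 and 7.77 FPKM at 24 h, and 9.36 and 8.76 FPKM at 7 d in saline and cocaine. The log2 ratios of -0.01, -0.16 and -0.09 lay within its saline span of 0.28. Hdac8, which deacetylates the cohesin subunit Smc3, was at 3.71 and 3.74 FPKM at 2 h, 4.25 and 3.60 FPKM at 24 h, and 4.25 and 4.47 FPKM at 7 d. It was lower in cocaine at 24 h alone, by 15.1% (log2 ratio -0.24), the largest decrease of any member at that time, and this did not pass the threshold.

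Hdac6 was at 8.91 FPKM in saline and 7.66 FPKM in cocaine at 2 h, 9.23 and 8.10 FPKM at 24 h, and 8.37 and 8.97 FPKM at 7 d. It was lower in cocaine at 2 h and 24 h (log2 ratios of -0.22 and -0.19) and higher at 7 d (0.10). Hdac11, the most abundant member, was at 62.7 and 61.6 FPKM, 62.3 and 66.5 FPKM, and 64.7 and 64.6 FPKM, within 0.09 of equality on the log2 scale at each time.

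**Figure D2:**
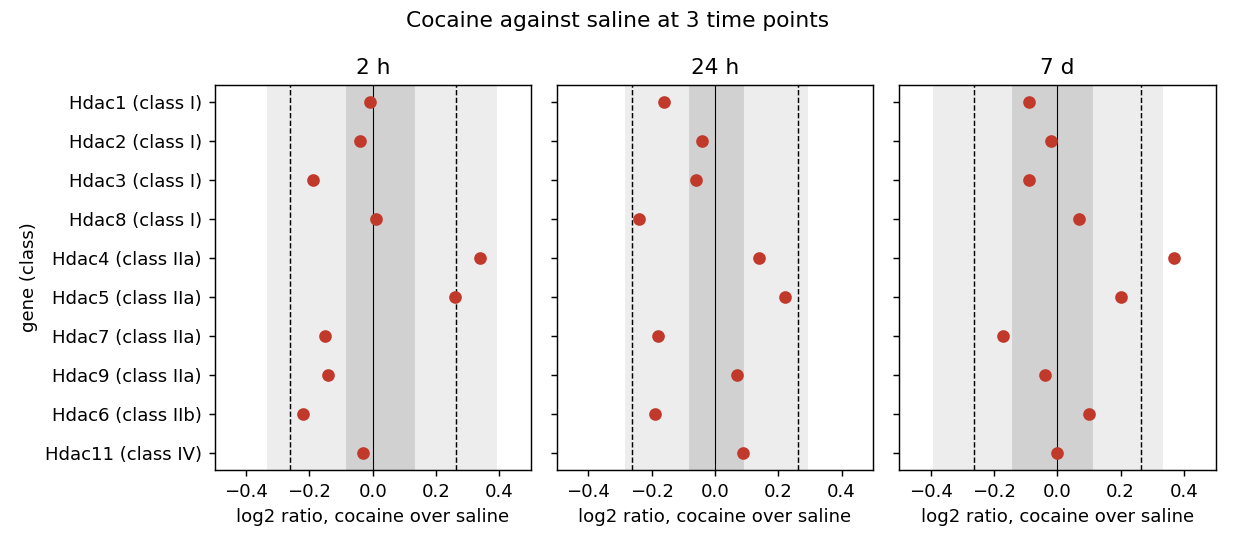
Log2 ratio of cocaine to saline for each member at 2 h, 24 h and 7 d; each point is the ratio of 2 pooled values, the light band spans the 5th to 95th percentile of all loci kept, the dark band the 25th to 75th, and the dashed lines mark 1.2-fold. Hdac4 at 2 h and 7 d and Hdac5 at 2 h reach the dashed line, and of the 30 points Hdac4 at 7 d is the one outside the light band, which ends there at 0.33.

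Counted over the members, Hdac4 and Hdac5 were higher by 1.2-fold or more at 2 h, where 10.5% of all loci were, and 0 were lower, where 7.15% of all loci were. Hdac5 was no longer past the threshold at 2 h with a pseudocount of 1 FPKM, with ratios centred on the median of all loci, or relative to loci of like length, and Hdac4 was. At 24 h, 0 of the 10 were higher and 0 lower, against 6.09% and 5.51% of all loci. At 7 d, Hdac4 was higher, against 8.12% of all loci, and 0 were lower, against 11.8%; relative to loci of like length these shares were 6.05% and 5.29%. Hdac4 alone was past the threshold upwards at 2 or more of the 3 times, as were 4.04% of all loci. Hdac4 and Hdac5 were the 2 members with a ratio above 0 at all 3 times (19.0% of all loci), and Hdac1, Hdac2, Hdac3 and Hdac7 were the 4 below 0 at all 3 times (14.4% of all loci). The median log2 ratio of the 10 members was -0.03, -0.05 and -0.01, beside 0.02, 0.01 and -0.01 over all loci. No count or median of the members was tested against that of all loci.

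Set against the span of the 3 saline groups, the order of the members was another. The difference between cocaine and saline was larger than that span for Hdac3, Hdac6 and Hdac7 at 2 h (3 of 10, and 24.8% of all loci). It was larger for Hdac6, Hdac7, Hdac8 and Hdac11 at 24 h (4 of 10, and 16.8% of all loci) and for Hdac3, Hdac4 and Hdac7 at 7 d (3 of 10, and 23.7%). Hdac7 was on this list at each time, and the share of all loci of which this holds was not computed. The same saline span of a gene served at all 3 times. Hdac5 was on the list at none, and Hdac4 at 7 d alone, where its ratio and its saline span were equal to 2 decimals.

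The makeup of the RNA of the 10 members differed between the groups mainly through Hdac5. The summed level of the 10 members was 207 FPKM in saline and 208 FPKM in cocaine at 2 h, 213 and 220 FPKM at 24 h, and 206 and 210 FPKM at 7 d. Class IIa held 27.6%, 28.6% and 24.5% of it in saline at 2 h, 24 h and 7 d, and 31.2%, 31.1% and 26.8% in cocaine. These differences were 3.57, 2.56 and 2.26 percentage points, and with Hdac5 left out of the members they were 0.439, 0.418 and 0.378. Class I went the other way, from 37.8% to 35.5%, 37.9% to 35.0%, and 40.0% to 38.1%. The class IIa sum divided by the class I sum was 0.730, 0.753 and 0.613 in saline at these times, and 0.878, 0.890 and 0.703 in cocaine. Saline groups alone thus ranged from 0.613 to 0.753, and the cocaine group of 7 d lay inside that range.

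**Figure D3:**
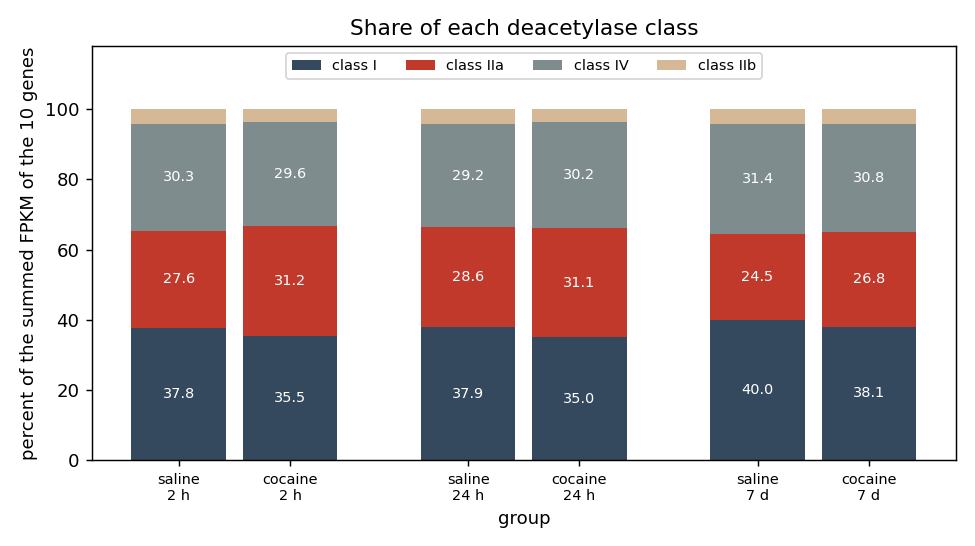
Share of each class in the summed FPKM of the 10 members, in percent, for the 6 groups; each bar is 1 group of 2 pooled libraries and adds up to 100%. Class IIa is the larger in cocaine at each time point, 31.2% against 27.6% at 2 h, and class I the smaller.

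The ratios moved with transcript length over all loci. Between the ratio and the length of a gene's longest protein-coding transcript, Spearman's rho across loci, which are not independent replicates, was 0.16, 0.08 and 0.48 for the ratios of 2 h, 24 h and 7 d. At 7 d the median log2 ratio was -0.24 in the bin of shortest transcripts and 0.14 in that of the longest. The Hdac4 ratio lay 0.30, 0.11 and 0.33 above the median of loci of like length at 2 h, 24 h and 7 d, and the Hdac5 ratio 0.23, 0.20 and 0.13 above it. The saline group of 7 d stood apart from the other saline groups in the opposite direction, with rho of -0.48 over saline at 2 h and -0.45 over saline at 24 h, while rho was -0.02 for saline at 24 h over 2 h. For saline at 7 d over 2 h, Hdac4 had a log2 ratio of -0.37 and loci of like length a median of -0.06. For cocaine at 7 d over 2 h, these were -0.34 and -0.06, with rho of -0.17 over all loci. Hdac5 was also lower at 7 d than at 2 h in both treatments, by -0.17 in saline and -0.24 in cocaine. The cocaine to saline ratios of 7 d are taken against the saline group of 7 d. The part of length in the Hdac4 and Hdac5 values beyond this was not tested.

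**Figure D4:**
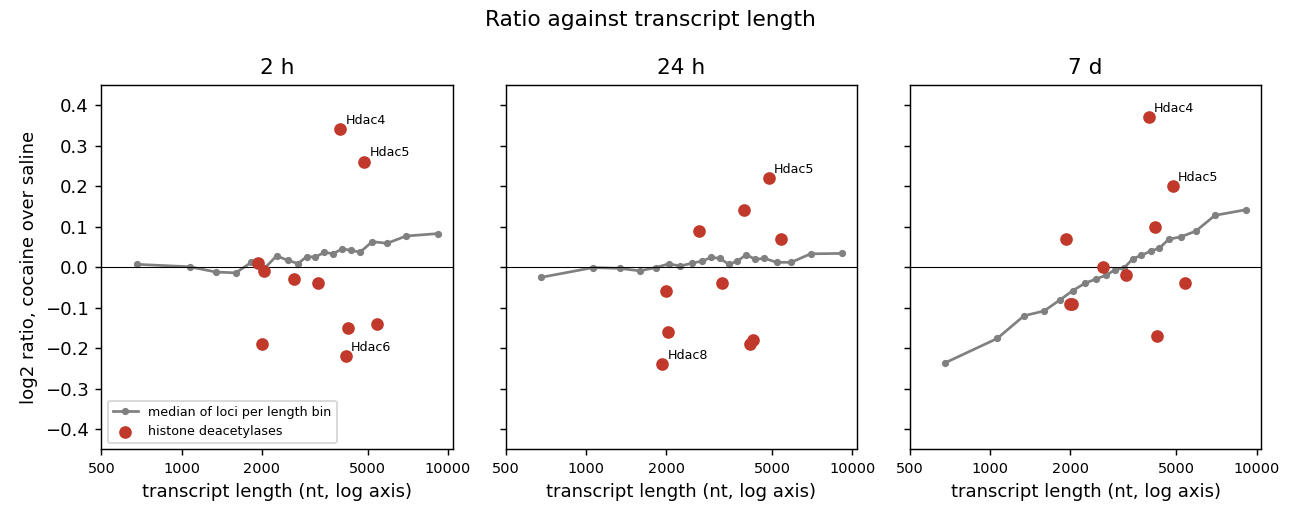
Log2 ratio of cocaine to saline against transcript length in nucleotides (nt, log axis) at 2 h, 24 h and 7 d; the grey line joins the median of all loci in each of 20 bins of the length of the longest protein-coding transcript and red points are the members. At 7 d the grey line climbs from -0.24 to 0.14, and Hdac4 lies above it at all 3 time points.

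The loci whose 3 ratios were nearest to those of Hdac4, by Euclidean distance over 12843 loci, were Ptch1 (distance 0.021), Alkbh5 (0.025) and Ankrd52 (0.031). Ptch1, the receptor of Hedgehog ligands, was at 4.34 FPKM in saline and 5.58 FPKM in cocaine at 2 h, 4.51 and 5.04 FPKM at 24 h, and 3.56 and 4.64 FPKM at 7 d. Alkbh5, an RNA demethylase, had log2 ratios of 0.32, 0.15 and 0.36, and Ankrd52 had 0.32, 0.17 and 0.37. Hdac10, the family member not among the 10, is a class IIb polyamine deacetylase. It was at 2.24 and 1.69 FPKM, 2.33 and 2.63 FPKM, and 2.65 and 1.99 FPKM, with log2 ratios of -0.39, 0.17 and -0.39. Hdac10 was thus past the threshold downwards at 2 h and 7 d, where 7.15% and 11.8% of all loci were. It is not in the counts and shares of the 10 members.

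The proteins that class IIa enzymes work with were read from lists of their genes. Of the kinases known to phosphorylate class IIa enzymes, 3 of 10 were past the threshold upwards and 0 downwards at 2 h, beside 10.5% and 7.15% of all loci. Sik1, a kinase induced by cyclic AMP, was at 1.05 FPKM in saline and 3.18 FPKM in cocaine at 2 h (log2 ratio 1.51), and at 24 h its log2 ratio was 0.55. Sik2 (0.32) and Prkd3 (0.29) were the others at 2 h. At 24 h, 1 of 9 kept was higher (6.09% of all loci), and at 7 d Mark2 was higher (0.31, 8.12% of all loci) and Camk1 lower (-0.27, 11.8% of all loci) of 8 kept. Among 3 MEF2 genes kept, 1 was past the threshold at 2 h, upwards (10.5% of all loci): Mef2d was at 29.6 and 37.0 FPKM at 2 h (0.32), and none passed the threshold at 24 h or 7 d. Of the 5 genes of 14-3-3 proteins kept, 0 passed it at any time. Of all loci, 10.5%, 6.09% and 8.12% were higher and 7.15%, 5.51% and 11.8% lower at 2 h, 24 h and 7 d.

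Of the corepressor subunits that hold class I enzymes, 5 of 35 kept were higher at 2 h and 1 lower, beside 10.5% and 7.15% of all loci, with a list median of 0.06 beside 0.02 over all loci. Sap30, a subunit of the Sin3 complex, was at 3.14 and 4.44 FPKM (0.49), Arid4a was 0.38 and Rcor2, a CoREST subunit, 0.31. Ing2, another Sin3 subunit, was the one lower, at 21.4 and 15.2 FPKM (-0.49). At 24 h, 2 of 35 were higher, Sap30 (0.40) and Rcor2 (0.27), and 0 lower, beside 6.09% and 5.51% of all loci. At 7 d, Rcor1 (0.36) and Mier1 (0.34) were higher and Sap18 (-0.34) lower of 33 kept, beside 8.12% and 11.8% of all loci. Nothing particular to these subunits is read from counts of this size.

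The acetyltransferases, which write the marks that deacetylases remove, had log2 ratios above 0 for all 13 genes at 2 h, for 5 at 24 h and for 9 at 7 d, where 56.6%, 53.1% and 47.7% of all loci were above 0. Their median was 0.12, -0.01 and 0.15, beside 0.02, 0.01 and -0.01 over all loci. Loci in the bin of longest transcripts had medians of 0.08, 0.03 and 0.14. The part of transcript length in the acetyltransferase values was not tested. The threshold was passed upwards by 1 of 13 genes at 2 h, Ep300 (0.28), beside 10.5% of all loci, and by 3 at 7 d, Kat6a (0.35), Ep300 (0.32) and Kat2b (0.28), beside 8.12%. It was passed downwards by Kat2b at 24 h (-0.34, 5.51% of all loci) and by Hat1 at 7 d (-0.27, 11.8%). Sirtuins are the deacetylases that use NAD instead of zinc, and 6 were kept. Of these, Sirt4 was past the threshold downwards at 2 h (-0.56, 7.15% of all loci) and at 7 d (-0.30, 11.8%). No sirtuin passed it at 24 h.

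Other signals in the tissue moved with treatment beside these values. The immediate-early genes Fos, Egr1, Arc, Nr4a1 and Junb were higher in cocaine at all 3 times, 5 of 5 past the threshold. Of all loci, 10.5%, 6.09% and 8.12% were past it upwards at 2 h, 24 h and 7 d. Arc was at 5.59 FPKM in saline and 77.8 FPKM in cocaine at 2 h. The cortical excitatory neuron marker Slc17a7 was at 466 to 532 FPKM, and the striatal markers Drd2 and Adora2a were at no more than 0.234 and 1.35 FPKM. The 6 neuron markers had median log2 ratios of 0.02, 0.02 and 0.05 and summed to 2430 to 2540 FPKM. The 6 astrocyte markers had 0.16, -0.18 and 0.21, and summed to 554 and 623, 643 and 577, and 532 and 637 FPKM in saline and cocaine. The 6 oligodendrocyte markers had -0.10, -0.22 and 0.00, and summed to 670 and 630, 803 and 669, and 782 and 776 FPKM. The Hdac4 ratios of 0.34, 0.14 and 0.37 had the sign of the astrocyte median at 2 h and 7 d but not at 24 h. The Hdac6 ratios of -0.22, -0.19 and 0.10 had that sign at 24 h and 7 d but not at 2 h. Those of Hdac8, 0.01, -0.24 and 0.07, had the sign of the astrocyte median at all 3 times, with the 2 h ratio close to 0. The Hdac6 ratios had the sign of the oligodendrocyte median at 2 h and 24 h. The part of glial RNA in the members' values was not tested. The 6 microglia markers had medians of 0.08, -0.08 and 0.01, the 5 endothelial markers 0.13, -0.06 and 0.14, and the 4 striatal markers kept 0.20, 0.05 and 0.10. Of 6 choroid plexus markers 2 were kept and differed from each other: Ttr had log2 ratios of -1.83, -0.66 and 4.11, and Kcnj13 had 0.30, 0.07 and 0.08. In saline and cocaine, Ttr was at 1.9 and 0.461 FPKM at 2 h and at 0.284 and 6.54 FPKM at 7 d. At both times 1 of the 2 groups was thus below 1 FPKM. The other 4, Kl, Folr1, Clic6 and Sostdc1, were at 0.668 FPKM or below in every group.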

How the data were processed

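RNA of the prefrontal cortex was sequenced from polyA-selected TruSeq libraries without strand information. The authors trimmed and aligned the reads (TopHat2 2.0.12 and Cufflinks 2.2.1 per the submitters' processing notes) and deposited, for each time point, a Cuffdiff table with 1 pooled FPKM per group, made from 2 libraries. The same tables hold the authors' log2 fold change, test statistic, p-value, q-value and call of each locus, which were not used. The depth per library is not given in these tables, so that no interval or floor was computed, and no test was run.

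The labels list 12 samples, although their protocol text counts fewer libraries, and they differ from the methods in read length and trimming tool; the sample list and the processing notes were followed. The first value column was read as saline and the second as cocaine. The column headers are ambiguous, and the order was checked against the study's supplementary lists: 350 of 456 genes at 2 h, 12 of 14 at 24 h and 471 of 530 at 7 d matched within 1% in this order, and 0 in the other. Positions are 1-based on GRCm38, where 99.7% to 99.8% of named loci overlapped their own RefSeq gene; the methods name mm9.

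Ratios were taken as log2(FPKM + 0.1), over named loci, 1 per symbol (the longest), with a mean of at least 1 FPKM, in Python 3.11.15 (pandas 2.3.3, numpy 2.4.6, scipy 1.17.1, matplotlib 3.10.9). The ratio and count steps were tested on simulated data. Transcript lengths are those of GENCODE M1. Named were the 10 members, Hdac10, the immediate-early and marker genes given, up to 4 genes per list and time point past 1.2-fold, and the 3 loci most like the member with the largest ratio. The members and lists were chosen with earlier results of these data known. Sirt7, Brms1, Mta2, Mef2b and Ywhag, and at 7 d Sin3b and Mier2, share a locus with another gene and were not counted. Alternatives were other pseudocounts, filters, centrings, fold thresholds and locus choices.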

Additional observations from a re-analysis of the deposited data

How the results depend on the processing

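At 2 h, 2 members were past 1.2-fold, and 1 (Hdac4) with a pseudocount of 1 FPKM, with ratios centred on the median of all loci, or relative to loci of like transcript length. At 7 d, 1 member was past it, and 0 at a mean of at least 5 FPKM, which leaves Hdac4 out. With a threshold of 1.5-fold, 0 members were past it at 2 h and 0 at 7 d, and with 1.1-fold there were 6, 6 and 3 at the 3 times. Among them, 2 were higher and 4 lower at 2 h (24.5% and 16.4% of all loci), 2 and 4 at 24 h (16.7% and 14.7%), and 2 and 1 at 7 d (21.2% and 25.4%). The members beyond the saline span numbered 4 at 24 h, and 2 at a mean of at least 5 FPKM. At 7 d they numbered 3, and 1 at a mean of at least 5 FPKM and 1 relative to loci of like length. In that last setting the ratio was taken relative to length and the saline span was not, so the 2 are on unlike scales. The share of all loci past 1.2-fold at 7 d was 8.12% higher and 11.8% lower, and 6.05% and 5.29% relative to loci of like length. Of 232 recomputed member ratios, 4 changed sign, all of a ratio within 0.01 of 0 (Hdac8 at 2 h and Hdac11 at 7 d), and the largest shift was 0.08. The class IIa share without Hdac5, and the limit to loci with a completed estimate, were added after the data were seen. Leaving out a library could not be run, because each value is pooled. No paired analysis was possible because the columns carry 1 pooled value per group.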
